A study of Mus musculus with 12 samples.

Results

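Muscle of NRF2-knockout mice was compared with muscle of wild-type mice after treadmill exercise, by RNA sequencing of 3 samples per genotype. These 6 samples are those that the labels place in the treadmill arm, out of 12 in the series; the other 6 are sedentary animals of the same genotypes. All animals were males aged 5 months. The wild-type treadmill group carried the C57BL/6 background without a named alteration, and the knockout treadmill group carried NRF2-KO on the same background. The labels name neither the deleted stretch of the gene nor the muscle taken, nor the length and number of treadmill sessions. They list separate samples without saying that each is a separate animal, and the p-values reflect only how these samples vary.

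NRF2, the product of Nfe2l2, activates transcription and is normally held in the cytosol and marked for degradation by KEAP1. Oxidants and electrophiles release it, and with a small MAF protein it binds the antioxidant response element in front of genes for quinone reduction, glutathione synthesis, thioredoxin recycling and iron handling. Working muscle produces superoxide and hydrogen peroxide, which these enzymes remove.

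Short stretches of promoter are shown for genes that fell in the knockout, because the antioxidant response element is the sequence through which NRF2 acts. Its core was searched as TGACNNNGC on both strands, where N is any base, in windows from 250 bases before to 50 bases after each annotated start (RefSeq, GRCm38.p6). Capitals mark the match, and each line reads in the direction of its gene.
Htatip2, chr7:49759448-49759486, plus strand: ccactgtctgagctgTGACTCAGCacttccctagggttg
Pir, chrX:164269202-164269240, plus strand: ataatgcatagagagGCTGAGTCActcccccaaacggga
Dusp13, chr14:21748673-21748711, minus strand: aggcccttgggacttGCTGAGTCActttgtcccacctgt
Gsta3, chr1:21240449-21240487, plus strand: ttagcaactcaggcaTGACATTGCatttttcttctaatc
Txnrd1, chr10:82859099-82859137, plus strand: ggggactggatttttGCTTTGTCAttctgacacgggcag
Htatip2, Pir and Dusp13 carry the identical nonamer TGACTCAGC, written as its reverse complement in Pir and Dusp13. A window was found for 20 of the 23 genes that passed the test described below, and 19 of these were lower genes other than Nfe2l2 itself. The core was present for 6 of those 19 genes (31.6%), the 5 above and Srxn1. Among tested genes with a window it was present for 1798 of 10493 (17.1%). Counted by window, it was in 7 of 27 for the 19 genes (25.9%) and 1934 of 13444 for tested genes (14.4%). Of the windows of all genes, 4071 of 32851 held it (12.4%). The exact nonamer, chosen after the matches were seen, was present for 3 of the 19 genes (15.8%) and for 57 of the 10493 (0.543%). These are descriptions of letters in a window, not evidence of binding, and an element farther from the start would be missed.

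Total counts in the 6 libraries ran from 21232040 to 29477272. Levels are given as CPM, counts scaled to a common library size with TMM factors. Lanes are known from the labels: knockout replicate 1 and wild-type replicate 2 were on lane 3, knockout replicates 2 and 3 and wild-type replicate 3 on lane 4, and wild-type replicate 1 alone on lane 8. That library stood apart on the first principal component (32.4% of variance), at -32.3, with the other 5 between -9.15 and 15.1. The second component (21.4%) put the 3 knockout libraries between 11.2 and 16.1 and the 3 wild-type libraries between -16.8 and -10. Because no knockout library shared lane 8, results are also given without wild-type replicate 1. The 12 muscle fibre markers, fast and slow, summed to between 131392 and 146367 CPM in the 6 libraries.

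Nfe2l2, on chromosome 2 at 75675513 to 75704641 (GRCm38, minus strand), was at 2.73, 2.71 and 3.23 CPM in knockout replicates 1 to 3. In wild-type replicates 1 to 3 it was at 36.6, 41.8 and 35.3 CPM. All 3 knockout libraries thus lay far below all 3 wild-type libraries, as their labels say, with 7.63% of the wild-type mean remaining. Those remaining reads amounted to 60 to 84 counts per library. The log2 fold change was -3.71 (SE 0.11, edgeR adjusted p = 1.17e-10), and -3.74 without wild-type replicate 1.

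Across the genome few transcripts differed. In quasi-likelihood tests by edgeR, adjusted by the Benjamini-Hochberg method, 23 of 14194 genes passed at an adjusted p under 0.05 (0.162%), 22 of them lower in the knockout (0.155%) and 1 higher (0.00705%). At an unadjusted p under 0.05, 954 genes passed (6.72%), 582 lower (4.1%) and 372 higher (2.62%). The median log2 fold change over all genes was 0.01, and 48.3% of genes lay below 0. The 6 libraries did not overlap between genotypes for any of the 23 genes, a separation that 13% of all tested genes also showed. In 9 of the 22 lower genes the log2 fold change was -1 or below.

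**Figure D1:**
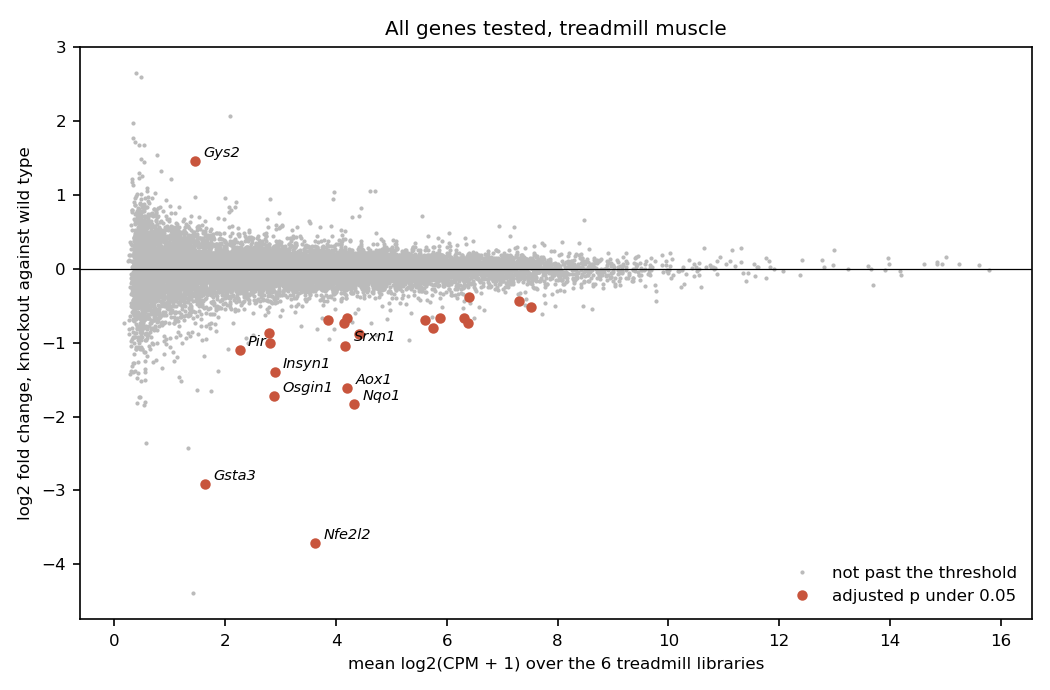
Log2 fold change of knockout against wild type in treadmill muscle (vertical axis) against the mean log2(CPM + 1) over the 6 libraries (horizontal axis) for 14194 genes, with the 23 genes at an adjusted p under 0.05 in red. Of the red points, 22 lie below 0 and Gys2 lies above.

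Among enzymes that detoxify quinones and aldehydes, Nqo1 and Aox1 fell. Nqo1 reduces quinones in a single step, which avoids semiquinone radicals. It was at 10.3, 10.1 and 9.93 CPM in knockout replicates 1 to 3 and at 33.7, 43.9 and 30.2 CPM in wild-type replicates 1 to 3. The knockout libraries were nearly level while the wild-type libraries spread over a wider range, with replicate 2 highest. The log2 fold change was -1.83 (SE 0.15, edgeR adjusted p = 2.73e-05), which left 28.1% of the wild-type level. Aox1, the aldehyde oxidase, was at 11.4, 8.63 and 9.74 CPM in knockout and at 28.4, 36.1 and 26.8 CPM in wild-type muscle. Its log2 fold change was -1.61 (SE 0.13, edgeR adjusted p = 2.73e-05). Annotated transcripts of Aox1 share at most 145 near-identical bases with other genes, so a small part of its reads is uncertain. The other 22 tested members of this list, which held aldehyde dehydrogenases, aldo-keto reductases and carboxylesterases, did not pass. Aldh2, the mitochondrial aldehyde dehydrogenase, averaged 59 ± 4.9 CPM in knockout and 75.6 ± 5.1 CPM in wild-type muscle (SD, n = 3 each; edgeR adjusted p = 0.611). Of the 24 members 18 lay below 0, and 12 did so with lane as a term.

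Osgin1, an oxidative stress-induced growth inhibitor, also fell. It was at 3.43, 3.12 and 3.69 CPM in the knockout libraries and at 10.9, 11.5 and 11.4 CPM in the wild-type libraries. Both groups were tight, and the log2 fold change was -1.72 (SE 0.12, edgeR adjusted p = 7.32e-06). Pir encodes pirin, an iron-binding nuclear protein. It was at 2.85, 2.89 and 2 CPM in knockout and at 6.32, 5.42 and 4.77 CPM in wild-type muscle (log2 fold change -1.10, SE 0.18, edgeR adjusted p = 0.0166). It passed in 1 of 6 fits that each left out 1 library. Without knockout replicate 1, 2 or 3 the adjusted p was 0.0528, 0.0504 and 0.0979, and without wild-type replicate 1 or 2 it was 0.0737 and 0.0594.

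In the thioredoxin system, Srxn1 and Txnrd1 fell. Srxn1, sulfiredoxin, restores over-oxidised peroxiredoxins. It was at 11.9, 11.5 and 12 CPM in the knockout libraries and at 21.5, 25.6 and 26 CPM in the wild-type libraries. Knockout muscle kept 48.4% of the wild-type level, with a log2 fold change of -1.04 (SE 0.09, edgeR adjusted p = 4.2e-05). Txnrd1, the cytosolic thioredoxin reductase, was at 37.9, 40.2 and 41.7 CPM in knockout and at 66, 77.6 and 64.8 CPM in wild-type muscle. Its log2 fold change was -0.80 (SE 0.08, edgeR adjusted p = 0.000179).

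Txn1, the cytosolic thioredoxin that Txnrd1 reduces, did not pass. It was at 18.6, 19.6 and 17.9 CPM in knockout and at 42.5, 24.9 and 25.4 CPM in wild-type muscle. The groups did not overlap, and wild-type replicate 1 stood well above the other wild-type libraries. The log2 fold change was -0.73 (SE 0.20, edgeR adjusted p = 0.433), and -0.43 without wild-type replicate 1 (adjusted p = 0.696). With lane as a term it was -0.44 (adjusted p = 0.0459). Txn1 shares 309 near-identical bases with Txn-ps1, so its counts are uncertain. Of 20 tested members of the thioredoxin and peroxiredoxin list 2 fell, 0 rose and 18 did not pass. Prdx6, a peroxiredoxin that also reduces phospholipid hydroperoxides, was at 68.5 ± 4.9 CPM in knockout and 73.8 ± 1.9 CPM in wild-type muscle (SD, n = 3 each).

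Glutathione is made from glutamate, cysteine and glycine, and the first step is carried out by a catalytic subunit, Gclc, with a modifier subunit, Gclm. Gclc was at 10.9, 11.2 and 9.58 CPM in the knockout libraries and at 16.2, 17.8 and 17.3 CPM in the wild-type libraries. It fell by 0.69 on the log2 scale (SE 0.10, edgeR adjusted p = 0.00899). The call was lost without knockout replicate 3 (adjusted p = 0.072) or wild-type replicate 2 (adjusted p = 0.0542). Gclm was at 23.6, 20.1 and 19.7 CPM in knockout and at 19.8, 24.1 and 19.6 CPM in wild-type muscle, and the groups overlapped throughout. Its log2 fold change was -0.00 (SE 0.12, edgeR adjusted p = 0.999). Gclm shares up to 287 near-identical bases with other genes and overlaps Gm17494 on the opposite strand, so its counts are uncertain. Gsr, which regenerates reduced glutathione, averaged 10.9 ± 0.81 CPM in knockout and 14.4 ± 1.5 CPM in wild-type muscle (log2 fold change -0.41, edgeR adjusted p = 0.233). In the whole list 1 of 17 tested members fell and 16 did not pass.

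Glutathione transferases couple glutathione to electrophiles. Gsta3, an alpha-class member, was at 0.78, 0.587 and 0.577 CPM in the knockout libraries and at 3.7, 6.61 and 4.68 CPM in the wild-type libraries. These levels correspond to 13 to 20 and 110 to 134 counts. After Nfe2l2 it had the largest fall of the 22 lower genes, with 13% of the wild-type level left (log2 fold change -2.92, SE 0.26, edgeR adjusted p = 4.47e-05). Gstm1, a mu-class member, was at 45.5, 41.2 and 51.1 CPM in knockout and at 70, 67.9 and 81.6 CPM in wild-type muscle. It fell by 0.67 on the log2 scale (SE 0.11, edgeR adjusted p = 0.0237). Its call was lost without knockout replicate 1 or 2 or wild-type replicate 3, with adjusted p of 0.157, 0.151 and 0.112. Gstm1 shares up to 657 near-identical bases with Gm8834 and Gstm2-ps1, so its counts are uncertain. Of 19 tested transferases 2 fell, 0 rose and 17 did not pass, with a median of -0.21. At an unadjusted p under 0.05, 9 of the 19 were lower and 0 higher, beside 4.1% lower and 2.62% higher over all tested genes. This list too was chosen with earlier results of these data known. Mgst1, a microsomal transferase, was at 67.7 ± 8.8 CPM in knockout and 91.6 ± 12 CPM in wild-type muscle (SD, n = 3 each; edgeR adjusted p = 0.473).

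Catalase, which splits hydrogen peroxide in peroxisomes, was the only one of 9 tested enzymes in its list to pass. Cat was at 37.5, 37.3 and 37.7 CPM in the knockout libraries and at 58.7, 62.2 and 60 CPM in the wild-type libraries. The spread within each genotype was small beside the gap, and the log2 fold change was -0.69 (SE 0.08, edgeR adjusted p = 0.000838). Gpx4, which reduces lipid peroxides, was at 56.5, 66 and 56.7 CPM in knockout and at 74.4, 74.4 and 74.3 CPM in wild-type muscle (log2 fold change -0.32, edgeR adjusted p = 0.241). Gpx4 shares up to 762 near-identical bases with other genes, among them Gpx4-ps2. Gpx3, the secreted glutathione peroxidase, lay in the other direction. It was at 223, 267 and 230.4 CPM in knockout and at 190.1, 196 and 191 CPM in wild-type muscle (log2 fold change 0.32, edgeR adjusted p = 0.447). Sod2, the mitochondrial superoxide dismutase, averaged 222 ± 23 CPM in knockout and 222 ± 17 CPM in wild-type muscle (SD, n = 3 each), and it shares sequence with 18 other genes.

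No gene of iron export, iron storage or haem degradation passed (0 of 13 tested). Slc40a1, the iron exporter ferroportin, was closest, at 16.1, 18.2 and 22 CPM in knockout and at 33.1, 42.8 and 29 CPM in wild-type muscle. The groups did not overlap (log2 fold change -0.89, SE 0.17, edgeR adjusted p = 0.0635). It passed without wild-type replicate 3 (adjusted p = 0.0419) and with lane as a term (adjusted p = 0.0187). Ftl1, the ferritin light chain, was at 11.1, 11.2 and 10.9 CPM in knockout and at 26.2, 16.4 and 15.9 CPM in wild-type muscle. As for Txn1, wild-type replicate 1 was the highest library. The log2 fold change was -0.82 (edgeR adjusted p = 0.195), and -0.55 without that library (adjusted p = 0.432); with lane as a term it was -0.56 (adjusted p = 0.0158). Ftl1 has pseudogene copies and overlaps Gm10252 on the opposite strand, so its counts are uncertain. Hmox1, the inducible haem oxygenase, was at 6.71, 5.28 and 6.27 CPM in knockout and at 13.1, 7.59 and 6.04 CPM in wild-type muscle. The groups overlapped, and the log2 fold change of -0.56 (edgeR adjusted p = 0.718) became -0.16 without wild-type replicate 1.

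Enzymes that supply NADPH to these systems did not pass (0 of 14 tested). Me1, malic enzyme, averaged 183 ± 11 CPM in knockout and 207 ± 21 CPM in wild-type muscle. G6pdx, which opens the pentose phosphate pathway, averaged 5.42 ± 0.87 and 5.65 ± 0.71 CPM (SD, n = 3 each). Me1 shares up to 1716 near-identical bases with other genes, and both overlap a gene on the other strand. Over the 7 lists of defence genes, from glutathione synthesis to iron storage, 8 of 115 tested genes fell (6.96%) and 0 rose. The median was -0.09, against 0.01 over all genes, and 79 of the 115 lay below 0. At an unadjusted p under 0.05, 28 were lower and 1 higher. Over all tested genes 0.155% fell past the threshold, and 4.1% were lower and 2.62% higher at an unadjusted p under 0.05. The lists were chosen with earlier results of these data known, so these counts are descriptions only. With lane as a term 11 fell and 0 rose.

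Partners and relatives of NRF2 itself did not pass, so 1 of 10 genes in that list, Nfe2l2, fell. Mafg, a small MAF protein that pairs with NRF2, was at 49.9, 43.8 and 44.3 CPM in knockout and at 59.6, 61.9 and 55.4 CPM in wild-type muscle. The groups did not overlap (log2 fold change -0.36, SE 0.08, edgeR adjusted p = 0.136). Exons of Mafg overlap those of Sirt7. Bach1, which competes with NRF2 at its elements, averaged 28.7 ± 1.7 CPM in knockout and 36.3 ± 3.7 CPM in wild-type muscle (edgeR adjusted p = 0.502). Keap1 averaged 38.7 ± 1.9 and 45.2 ± 1.5 CPM (edgeR adjusted p = 0.653), and it overlaps Gm16754 on the opposite strand.

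**Figure D2:**
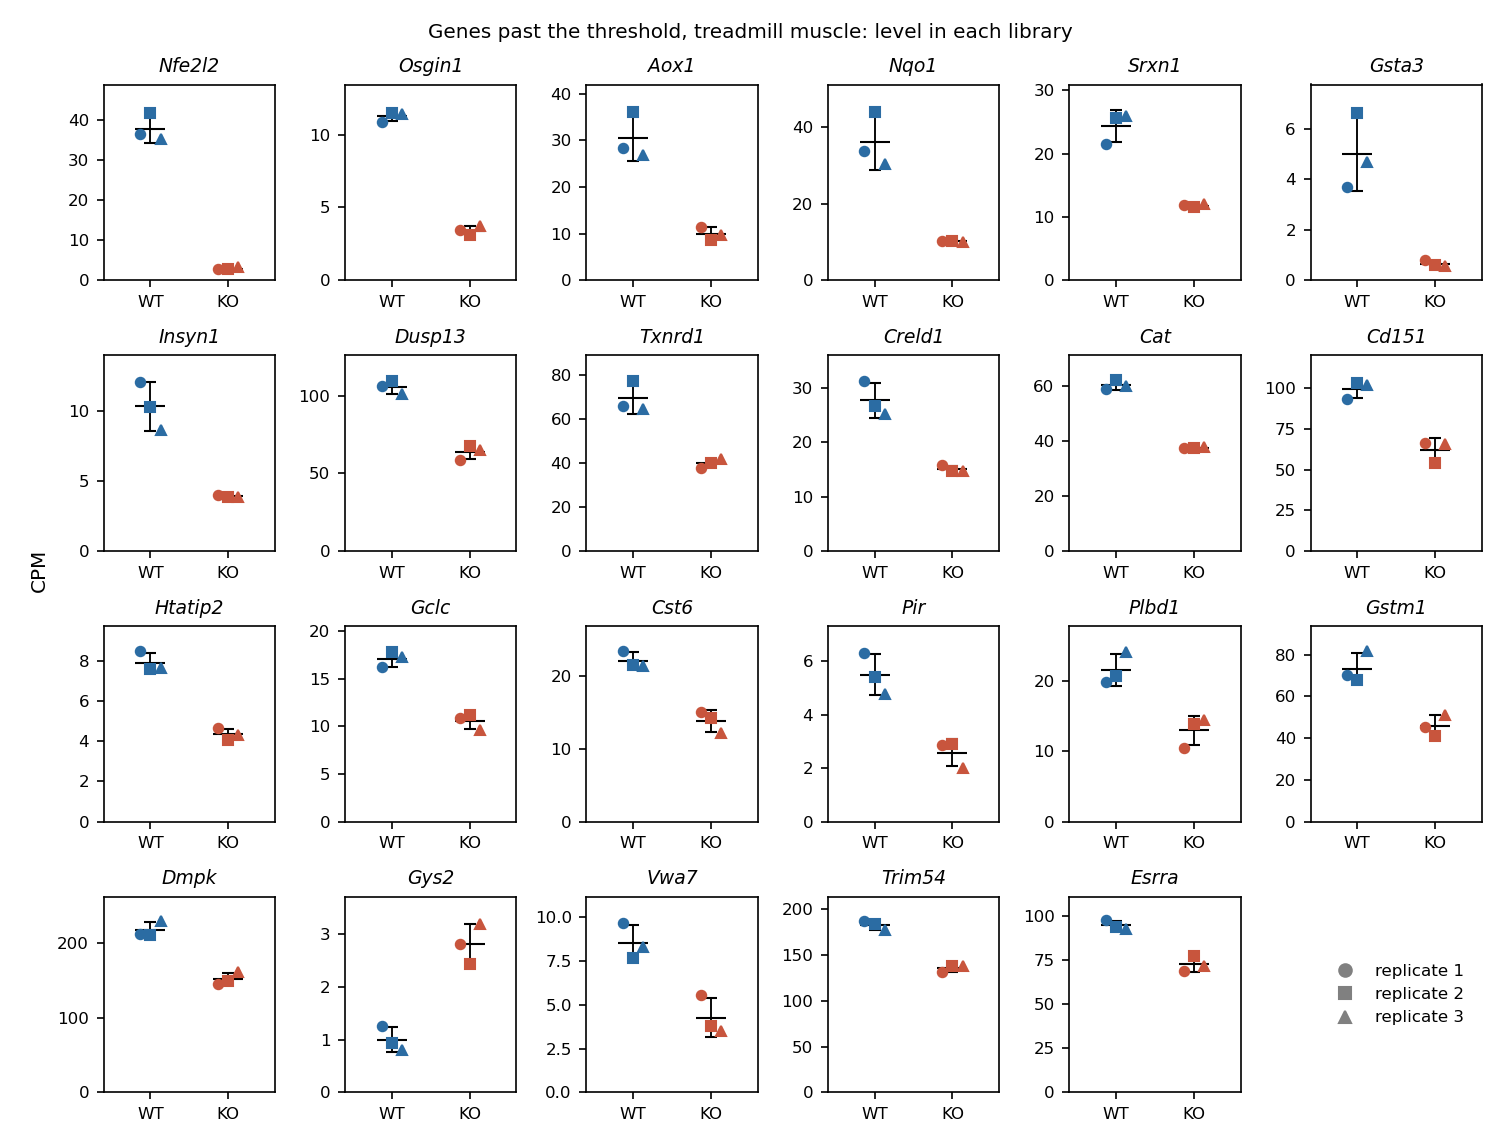
Level in CPM (vertical axes, each from 0) of the 23 genes past the threshold in the 3 wild-type and 3 knockout treadmill libraries; points are libraries, long bars means and short bars SD. No knockout point reaches a wild-type point in any panel, and Gys2 is the single gene with the knockout above.

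Other genes that fell are known for roles outside redox defence. Insyn1, a factor of inhibitory synapses that binds the dystrophin complex in neurons, was at 4.02, 3.88 and 3.85 CPM in the knockout libraries. In the wild-type libraries it was at 12.1, 10.3 and 8.64 CPM. The knockout libraries were nearly equal (log2 fold change -1.40, SE 0.13, edgeR adjusted p = 7.11e-05). The other 13 tested genes of the dystrophin complex did not pass. Sntb1, a syntrophin, averaged 8.93 ± 1 CPM in knockout and 5.31 ± 1.5 CPM in wild-type muscle (SD, n = 3 each; log2 fold change 0.76, edgeR adjusted p = 0.307).

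Creld1, an endoplasmic reticulum protein that promotes calcineurin signalling, was at 15.8, 14.7 and 14.7 CPM in knockout and at 31.3, 26.7 and 25.1 CPM in wild-type muscle. It fell by 0.88 on the log2 scale (SE 0.10, edgeR adjusted p = 0.000516). Htatip2, a reductase-like protein, was at 4.64, 4.06 and 4.31 CPM in knockout and at 8.46, 7.59 and 7.66 CPM in wild-type muscle (log2 fold change -0.87, edgeR adjusted p = 0.00344). Cst6, a secreted inhibitor of cysteine proteases, was at 15.1, 14.2 and 12.2 CPM in knockout and at 23.4, 21.5 and 21.4 CPM in wild-type muscle. It fell by 0.67 (edgeR adjusted p = 0.00965), and the call was lost without knockout replicate 3 (adjusted p = 0.0701). Plbd1, a lysosomal protein of the phospholipase B family, was at 10.5, 13.9 and 14.4 CPM in knockout and at 19.8, 20.6 and 24.1 CPM in wild-type muscle. It fell by 0.73 (edgeR adjusted p = 0.0166). Its call was lost without knockout replicate 1 or 2 or wild-type replicate 2 or 3, with adjusted p of 0.0722, 0.0504, 0.0542 and 0.0927.

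Dusp13, a phosphatase of muscle and testis, and Cd151, a tetraspanin that binds laminin receptors, fell by similar amounts. Dusp13 was at 58.8, 67.5 and 65 CPM in knockout and at 106, 109.8 and 101 CPM in wild-type muscle (log2 fold change -0.73, edgeR adjusted p = 0.000178). Cd151 was at 66.5, 54.2 and 66 CPM in knockout and at 93.1, 103 and 102 CPM in wild-type muscle (log2 fold change -0.67, edgeR adjusted p = 0.00274). Vwa7, a protein with a von Willebrand A domain, was at 5.54, 3.79 and 3.5 CPM in knockout and at 9.66, 7.69 and 8.3 CPM in wild-type muscle. Its mean was 4.28 ± 1.1 CPM in knockout and 8.55 ± 1 CPM in wild-type muscle (SD, n = 3 each; edgeR adjusted p = 0.0374). It passed in 1 of the 6 fits with 1 library left out, that without knockout replicate 1. In the other 5 its adjusted p was 0.242 without knockout replicate 2, 0.223 without knockout replicate 3, 0.143 without wild-type replicate 1, 0.0751 without wild-type replicate 2 and 0.0996 without wild-type replicate 3. Exons of 5 of the 23 genes, namely Dusp13, Cd151, Vwa7, Trim54 and Esrra, overlap a gene on the opposite strand. The library kit does not mark strand, so reads of such partners cannot be told apart.

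The smallest changes among the 22 lower genes were in 3 genes of the muscle cell. Dmpk, the kinase whose repeat expansion causes myotonic dystrophy, was at 145, 149.8 and 161 CPM in knockout and at 213, 211 and 229.9 CPM in wild-type muscle. It fell by 0.52 (SE 0.09, edgeR adjusted p = 0.0368). Trim54, a ring-finger protein of the sarcomere, was at 131, 138 and 138 CPM in knockout and at 187, 184 and 177 CPM in wild-type muscle. It fell by 0.43 (SE 0.08, edgeR adjusted p = 0.0374). Esrra, a nuclear receptor that drives mitochondrial genes, was at 68.9, 77.4 and 72 CPM in knockout and at 97.7, 93.9 and 92.8 CPM in wild-type muscle. It fell by 0.38 (SE 0.07, edgeR adjusted p = 0.0459). Each of these 3 calls was lost whichever 1 of the 6 libraries was left out. Their adjusted p then ran from 0.0737 to 0.282 for Dmpk, from 0.093 to 0.297 for Trim54 and from 0.0548 to 0.391 for Esrra. Just beyond the threshold lay Slc40a1 and, chosen after their values were seen, Ifit3b and Hpn, with edgeR adjusted p of 0.0635, 0.0635 and 0.0681.

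Gys2 was the single gene that rose. It encodes the glycogen synthase of liver, while Gys1 encodes that of muscle. It was at 2.81, 2.44 and 3.19 CPM in the knockout libraries and at 1.26, 0.937 and 0.809 CPM in the wild-type libraries. These are low levels, 54 to 83 and 19 to 39 counts, and the groups did not overlap. The log2 fold change was 1.46 (SE 0.26, edgeR adjusted p = 0.0368). The call held without wild-type replicate 1 (log2 fold change 1.69, adjusted p = 0.0404). It was lost without knockout replicate 1, 2 or 3, with adjusted p of 0.157, 0.0794 and 0.196, and without wild-type replicate 2 or 3, with 0.188 and 0.189.

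Of 19 tested genes of glycogen synthesis and breakdown 1 rose, 0 fell and 18 did not pass. Gbe1, the branching enzyme, was at 47.1, 49.2 and 52.2 CPM in knockout and at 64.3, 74.5 and 74.9 CPM in wild-type muscle. Its groups did not overlap (log2 fold change -0.52, SE 0.10, edgeR adjusted p = 0.0743). Gbe1 passed without wild-type replicate 1, where it fell by 0.60 (adjusted p = 0.0406), and with lane as a term, where it fell by 0.59 (adjusted p = 0.00141). Phka1, the muscle regulatory subunit of phosphorylase kinase, was at 814, 639 and 806 CPM in knockout and at 1017, 1048 and 982 CPM in wild-type muscle (log2 fold change -0.43, edgeR adjusted p = 0.218).

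**Figure D3:**
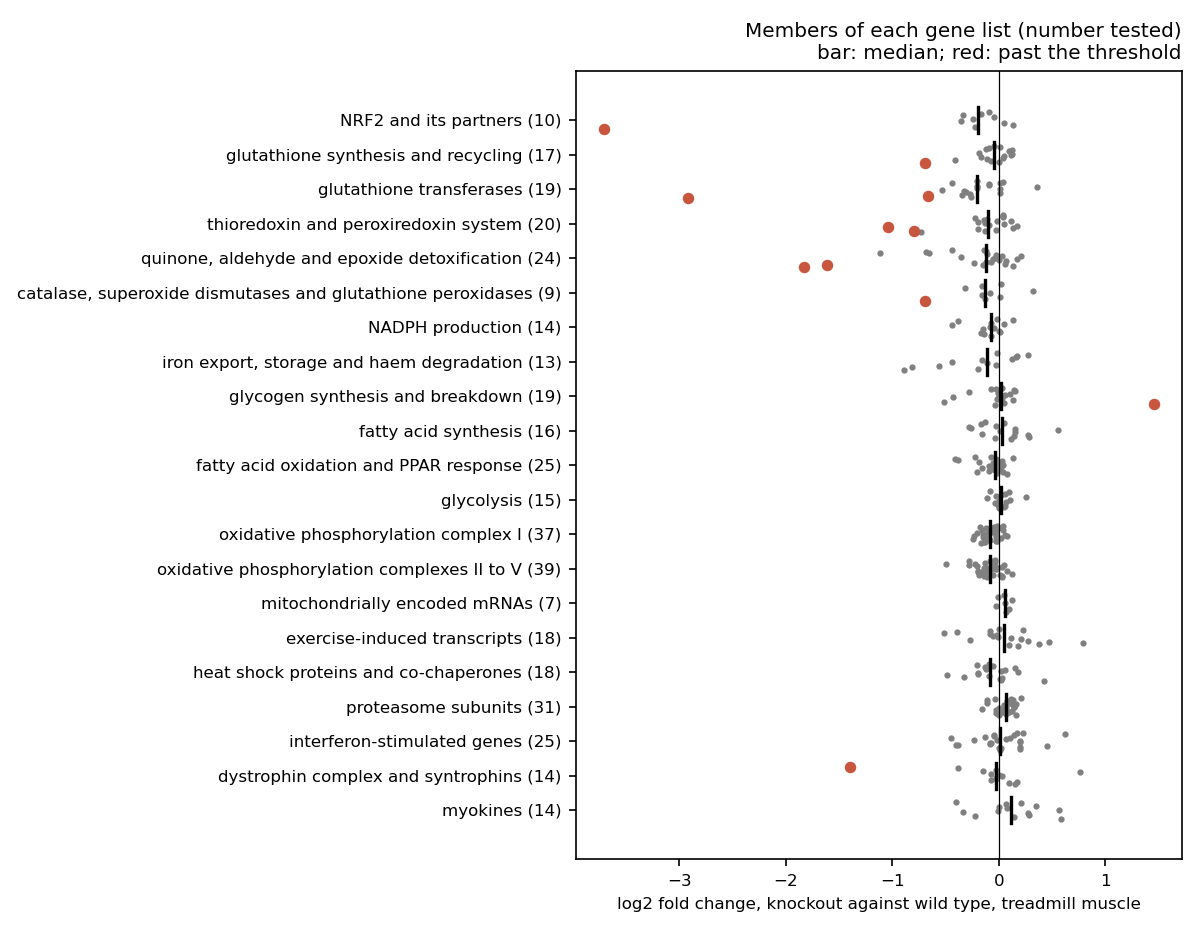
Log2 fold change of knockout against wild type in treadmill muscle (horizontal axis) for the tested members of 21 gene lists (rows, with the number tested); grey points are members, red points those past the threshold, and bars medians. The red points are Nfe2l2, 8 defence genes, Insyn1 and, on the right, Gys2.

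Genes of energy metabolism did not pass. For fatty acid synthesis 0 of 16 tested genes passed, for fatty acid oxidation 0 of 25 and for glycolysis 0 of 15, with medians of 0.03, -0.04 and 0.02. Of 76 tested nuclear genes for subunits of oxidative phosphorylation 0 passed. Their log2 fold changes lay between -0.50 and 0.12, and 64 of the 76 were below 0. The lower limit is that of Atp5e, a small ATP synthase subunit chosen after its values were seen, at 197, 246 and 201 CPM in knockout and at 453, 234 and 221 CPM in wild-type muscle. Wild-type replicate 1 sets that value, which was -0.10 with lane as a term, and the next lowest gene was at -0.28. With lane as a term 74 lay below 0, and in sedentary muscle 38 of the same 76 did. Complex I genes summed to 7304, 8465 and 7947 CPM in knockout and 8089, 8459 and 8389 CPM in wild-type replicates 1 to 3. Knockout replicate 1 was thus the lowest library and knockout replicate 2 the highest. Genes of complexes II to V summed to 15462, 17669 and 17199.5 CPM in knockout and 16915, 17888 and 18126 CPM in wild-type muscle. Here too knockout replicate 1 was lowest, and the groups overlapped. Atp5d, a subunit of the ATP synthase, averaged 179.6 ± 13 CPM in knockout and 218 ± 8.5 CPM in wild-type muscle (SD, n = 3 each; edgeR adjusted p = 0.473). It overlaps Cbarp on the opposite strand. Mitochondrially encoded mRNAs took both directions: 5 of 7 lay above 0, and 0 of 7 with lane as a term. Wild-type replicate 1 had the lowest summed level of the 13 listed mRNAs, 189519.8 CPM, against 246584 and 233382 CPM in wild-type replicates 2 and 3 and 215109, 241674 and 231751 CPM in the knockout libraries. The genes mt-Nd4l, mt-Co2 and mt-Co3 are listed at 0 in all 6.

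Of transcripts known to respond to exercise 0 of 18 tested passed, with a median of 0.05. Ppargc1a, the coactivator of mitochondrial biogenesis, was at 53.8, 45.5 and 66.7 CPM in knockout and at 41.1, 49.4 and 56.3 CPM in wild-type muscle (edgeR adjusted p = 0.869). Nr4a3, an immediate early nuclear receptor, was at 2.97, 2.98 and 7.97 CPM in knockout and at 2.2, 1.92 and 3.96 CPM in wild-type muscle, with replicate 3 highest in both genotypes. Pdk4, which holds back pyruvate oxidation, ranged from 238 to 1009 CPM in knockout and from 498 to 809 CPM in wild-type muscle. Both the range and the overlap of Pdk4 exceed any difference in means, 670.2 and 700.3 CPM.

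Stress and secretion lists were likewise without calls: 0 of 18 heat shock genes, 0 of 31 proteasome genes, 0 of 25 interferon-stimulated genes and 0 of 14 myokine genes passed. Hspb7, a small heat shock protein of striated muscle, averaged 143 ± 6.7 CPM in knockout and 202 ± 35 CPM in wild-type muscle (edgeR adjusted p = 0.524). Ostn, which encodes musclin, was at 135, 173 and 147 CPM in knockout and at 111, 118 and 74.8 CPM in wild-type muscle. Its groups did not overlap (log2 fold change 0.58, SE 0.16, edgeR adjusted p = 0.447), and it overlaps Gm32312 on the opposite strand. Bcl2, an inhibitor of apoptosis, averaged 8.97 ± 2.3 CPM in knockout and 15.9 ± 6.3 CPM in wild-type muscle. It did not pass (log2 fold change -0.81, edgeR adjusted p = 0.513), and it overlaps D630008O14Rik on the opposite strand.

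Markers of the cell types present were compared in the same way. In bulk tissue, fewer cells of a type and less RNA per cell cannot be told apart. In the test without a lane term no marker of any type passed (0 of 12 for muscle fibres, 0 of 8 for satellite cells, 0 of 9 for endothelium). With lane as a term the macrophage marker Cd163 passed as higher (log2 fold change 0.76, edgeR adjusted p = 0.0479). Its groups overlapped, and it did not pass without wild-type replicate 1 (log2 fold change 0.73, edgeR adjusted p = 0.464). The 16 macrophage and antigen presentation markers summed to 429, 366 and 288 CPM in knockout and to 598, 236 and 286 CPM in wild-type replicates 1 to 3. Wild-type replicate 1 was thus highest and wild-type replicate 2 lowest. Of these 16 markers 4 lay above 0 with all libraries and 16 did so without wild-type replicate 1, where the median moved from -0.06 to 0.48. Of the 14 fibroblast and matrix markers 6 lay above 0, and 13 without that library. Their sums were 3181, 2988 and 2678 CPM in knockout and 3685, 2470.4 and 2296 CPM in wild-type muscle.

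Tendon markers lay above 0 in 8 of 8 cases, with a median of 0.25, and in 7 of 8 without wild-type replicate 1. Their sums were 357, 359.7 and 386 CPM in knockout and 308, 343 and 261 CPM in wild-type muscle, so the sums did not overlap. Highly expressed markers weigh most in a sum. The mean log2(CPM + 1) of the 8 markers did overlap, at 4.26, 4.27 and 4.38 in knockout and 4.11, 4.29 and 3.87 in wild-type muscle. Thbs4, a matrix protein of tendon, was at 171, 167 and 172 CPM in knockout and at 149, 140.3 and 126 CPM in wild-type muscle (log2 fold change 0.30, edgeR adjusted p = 0.502). Schwann cell and myelin markers lay above 0 in 8 of 10 cases, and in 9 of 10 without that library, with sums of 112, 111 and 112 CPM in knockout and 99.2, 89 and 103 CPM in wild-type muscle.

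Erythroid markers, which follow the blood left in the tissue, lay below 0 in 8 of 8 cases with a median of -0.60, and did so without wild-type replicate 1 too. Their sums were 368, 545 and 355 CPM in knockout and 523, 646 and 525 CPM in wild-type muscle, so knockout replicate 2 reached the wild-type range. Alas2, the erythroid enzyme of haem synthesis, was at 8.7, 12.5 and 8.54 CPM in knockout and at 15.5, 16.3 and 15.3 CPM in wild-type muscle (log2 fold change -0.67, edgeR adjusted p = 0.678). It overlaps Apex2 on the opposite strand. No lymphocyte marker was expressed enough to be tested. The neutrophil genes Ly6g, Elane and Ngp and the skin keratins Krt14 and Krt1 had 0 counts in all 6 libraries. The part of any of these cell types in the results above was not tested.

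**Figure D4:**
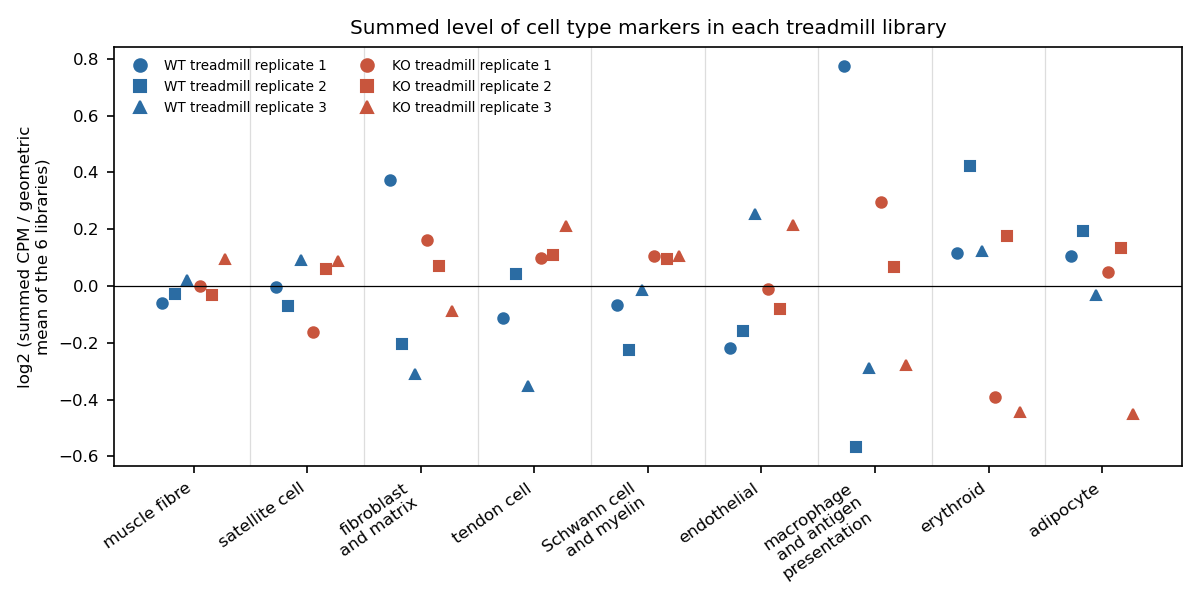
Summed level of the markers of 9 cell types in each treadmill library, as log2 of the sum over its geometric mean across the 6 libraries (vertical axis); colours are genotypes and symbols replicates. Wild-type replicate 1 is the highest library for macrophage and for fibroblast markers, and the 3 knockout libraries lie above the 3 wild-type libraries for tendon and Schwann cell markers.

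The knockout effect was then set beside that in sedentary muscle of the same genotypes, 3 samples each. In sedentary muscle 27 of 14194 genes passed (0.19%), 25 lower (0.176%) and 2 higher (0.0141%), and 19 genes passed in both states. Both comparisons come from the same fit and share 1 estimate of the spread of each gene, so passing in both is not independent. All 23 genes called in treadmill muscle had the same sign in sedentary muscle. Plbd1, Dmpk, Vwa7 and Esrra passed in treadmill but not in sedentary muscle. When only the treadmill libraries were fitted, Dmpk still passed (edgeR adjusted p = 0.0295). Plbd1, Vwa7 and Esrra did not (edgeR adjusted p of 0.0968, 0.102 and 0.162). In sedentary muscle the log2 fold changes of Plbd1, Dmpk, Vwa7 and Esrra were -0.37, -0.33, -0.88 and -0.21. The edgeR adjusted p there was 0.4, 0.323, 0.0749 and 0.452. Genes that passed in sedentary muscle alone were Mafg, Bach1, Slc40a1, Gbe1, Phka1, Pfkfb4, Gm13943 and Gm15935. Gm15935 is an antisense transcript whose exons overlap Dusp13, so its reads cannot be told apart from those of Dusp13. Pfkfb4, which makes an activator of glycolysis, was at 45.8, 43.3 and 37.2 CPM in knockout and at 67.6, 74.5 and 56.4 CPM in wild-type treadmill muscle (edgeR adjusted p = 0.0876). Gm13943, with no assigned function here, lies on chromosome 2 (77314751 to 77317035), the chromosome of Nfe2l2 (75675513 to 75704641). It was at 4.72, 4.38 and 3.31 CPM in the 3 knockout treadmill libraries. All lay above the wild-type ones, at 1.59, 2.02 and 2.81 CPM (edgeR adjusted p = 0.119). Whether its position plays a part was not tested.

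Whether the effect differed between exercise states was tested as an interaction. No gene passed (0 of 14194 by edgeR, 0 by DESeq2), and 270 genes had an unadjusted p under 0.05. Among the 23 genes the smallest unadjusted p was 0.0292, for Nfe2l2 itself, with a knockout effect of -3.71 in treadmill and -4.10 in sedentary muscle. That difference of 0.39 had an edgeR adjusted p of 1. For Plbd1 the difference was -0.36 (unadjusted p = 0.0438). The erythroid markers had the opposite sign in the 2 states, with a median of -0.60 in treadmill and 0.54 in sedentary muscle. The interaction of Alas2 was -1.25 (unadjusted p = 0.00443), and its adjusted p did not pass. Myh7, the slow myosin heavy chain, was 0.72 in treadmill and -0.43 in sedentary muscle (difference 1.15, unadjusted p = 0.00521). In treadmill muscle it was at 65.8, 69.9 and 44 CPM in knockout and at 37.5, 45.2 and 26.2 CPM in wild-type libraries, which overlapped. Myh7 shares up to 574 near-identical bases with other genes, among them Myh6, and overlaps opposite-strand transcripts, so its counts are uncertain.

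**Figure D5:**
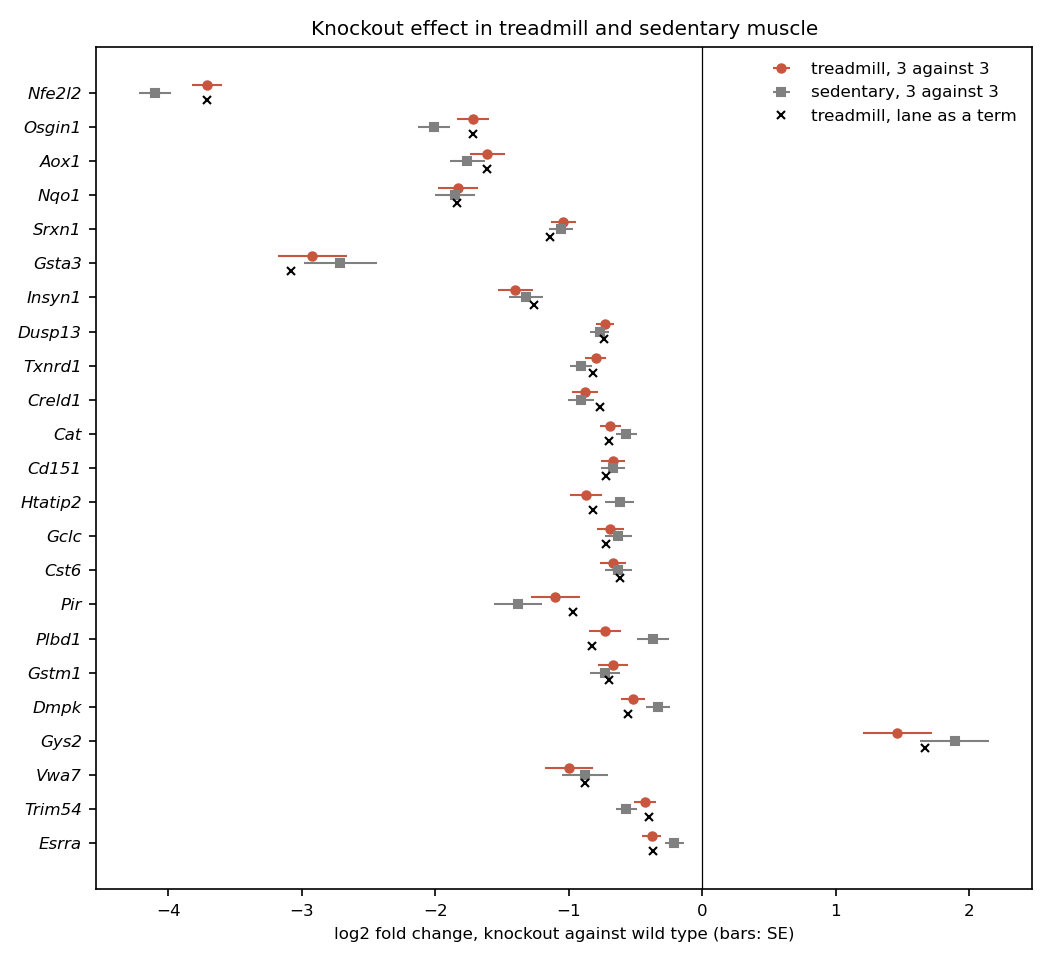
Log2 fold change of knockout against wild type (horizontal axis) for the 23 genes past the threshold in treadmill muscle (rows); circles are treadmill muscle and squares sedentary muscle with bars for SE, and crosses treadmill muscle with lane as a term. In every row the 3 symbols lie on the same side of 0. For circles and crosses this largely follows from treadmill groups that do not overlap.

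Without wild-type replicate 1, the library on lane 8, 20 of 14373 genes passed (0.139%), 18 lower (0.125%) and 2 higher (0.0139%). Of the 23 genes 18 were among them. The calls for Pir, Dmpk, Vwa7, Trim54 and Esrra were lost, with edgeR adjusted p of 0.0737, 0.0737, 0.143, 0.137 and 0.171, and their log2 fold changes were -0.99, -0.54, -0.91, -0.42 and -0.37. Gbe1 and Gfpt2, the enzyme that opens the hexosamine pathway, were added. Over all 6 fits with 1 library left out, 13 of the 23 genes passed every time: Nfe2l2, Osgin1, Aox1, Nqo1, Srxn1, Gsta3, Insyn1, Dusp13, Txnrd1, Creld1, Cat, Cd151 and Htatip2.

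With lane as a term in the fit, 83 genes passed (0.585%), 40 lower (0.282%) and 43 higher (0.303%), and all 23 genes kept their calls. Within lane 3 and within lane 4 the knockout minus wild-type difference in log2(CPM + 1) was -2.00 and -1.50 for Nqo1, -1.02 and -0.65 for Txnrd1 and -0.72 and -0.66 for Cat, where the sign is fixed by groups that do not overlap. Wild-type replicate 1 has no weight in that contrast, since its lane holds no other library. Of the 42 genes added as higher, 37 overlapped between genotypes over the 6 libraries, and in 38 wild-type replicate 1 lay above both other wild-type libraries. Of the 18 added as lower, 1 overlapped. Among genes added without overlap, Fzd4, a Wnt receptor of vessels, was at 88, 67.2 and 75.9 CPM in knockout and at 58.6, 54.5 and 51.5 CPM in wild-type muscle (log2 fold change with lane 0.56, adjusted p = 0.0187, and without lane 0.49, adjusted p = 0.316). Tspan8 and Ndrg1 were also added as higher, and Otub2, Pcp4l1, St3gal5, Pfkfb4, Cdk19 and Mapt as lower, with log2 fold changes with lane between -0.89 and 0.46.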

How the data were processed

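Gene expression was measured by RNA sequencing of muscle. Per the labels' protocols the library kit was TruSeq RNA from Illumina, which does not mark strand. Tools named in the submitters' processing notes are STAR 2.4.1d, bcl2fastq 1.8.4 and, for counting, featureCounts 1.4.6-p4, with GRCm38 as the build. Not given in the sources used here are its annotation, strand setting and handling of multiply mapped reads. All values come from unnormalized counts for 47729 Ensembl genes that the authors deposited. Their RPKM table was not used here. Gene symbols and coordinates come from an annotation of GRCm38 (47224 genes matched).

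Tests used edgeR 4.0.16 (R 4.3.3): TMM normalization, filterByExpr (minimum count 10, minimum total 15; 14194 genes and 99.94% of counts kept), and the quasi-likelihood test on all 12 libraries with 1 coefficient per group (8 residual degrees of freedom, biological coefficient of variation 0.112). Benjamini-Hochberg adjustment ran over every tested gene, with a threshold of 0.05. SE is the log2 fold change divided by the square root of the F statistic. Near-identical sequence means at least 95% identity over at least 100 bases between annotated transcripts. Between treadmill libraries log2 CPM correlated at 0.9857 to 0.9918, and the lowest mean chi-square per gene was 7.79, so none was a copy of another.

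Members and lists were chosen with earlier results of these data known; lists drawn from those results (14 of 22 genes named as lower fell, and 1 of 14 named as higher rose) support nothing here. Named genes are Nfe2l2, every gene past the threshold, 19 fixed genes, up to 3 members per list by smallest p, genes past the threshold in sedentary muscle alone, and up to 10 per direction added with lane as a term or without wild-type replicate 1. Not every gene the rule names is described, and Aldh2, Prdx6, Mgst1 and Ly6g, Elane, Ngp, Krt14 and Krt1 were named from their lists after their values were seen. In simulated counts (14194 genes, 3 simulations, 100 genes per fold) 49% of the 1.5-fold and 72.3% of the 2-fold changes were recovered, and 4.46% of the genes called were unchanged ones. Alternatives were other size factors, DESeq2 1.42.0, other filters, the 6 treadmill libraries alone, a replicate block, lane, and leaving out libraries.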

Additional observations from a re-analysis of the deposited data

How the results depend on the processing

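The difference in Nfe2l2 kept its direction and passed under every alternative tried, and all 23 genes kept their direction wherever they were tested. Knockout and wild-type treadmill libraries did not overlap for any of the 23 genes. A change of direction was therefore hardly possible, and the kept directions are no separate evidence. The 23 calls became 56 by DESeq2 (6 higher, 50 lower; 23 shared), 207 with no filter on low counts (63 higher, 144 lower; 23 shared), 83 with lane as a term and 37 without the libraries of lanes 7 and 8 (21 shared). They were 23 with DESeq2's size factors, 21 at a mean of at least 5 CPM (0 higher; 20 shared) and 19 from the treadmill libraries alone (18 shared). From the treadmill libraries alone the calls for Pir, Plbd1, Vwa7, Trim54 and Esrra were lost. Their edgeR adjusted p was then 0.077, 0.0968, 0.102, 0.0585 and 0.162. Leaving out 1 library gave 15 to 20 calls: 15 without knockout replicate 2, knockout replicate 3 or wild-type replicate 2, and 16 without knockout replicate 1. The count of 11 passing list members became 18 by DESeq2 and 41 with no filter, and ran from 9 to 12 with 1 library left out. The interaction gave 0 calls except with no filter, where it gave 68. The cause of these shifts was not tested. With the replicate number as a block 58 genes passed (11 higher, 47 lower; 22 shared) and 22 list members, but the numbers were not taken as pairs: same-numbered libraries correlated at 0.275, 0.00531 and 0.217, and knockout replicate 2 correlated best with wild-type replicate 3 (0.0467). Among the 23 genes, counts were lowest for Gsta3, Gys2 and Pir, with 13, 19 and 52 in their lowest libraries. Gsta3 still passed in all 6 fits with 1 library left out, and Gys2 and Pir in 1 each. In simulated data 49% of 1.5-fold and 72.3% of 2-fold changes were recovered. Differences of these sizes, as well as smaller ones, may therefore have gone undetected. The simulations held 100 changed genes per fold, more than the 23 called here. They also had no lane effect and no library that stood apart, so the share recovered in the real data may be lower.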

Other observations

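These genes were chosen after their values were seen, and no explanation was tested. Xlr3b, an X-linked gene of the Xlr cluster, was at 1.17, 0.452 and 0.616 CPM in knockout replicates 1 to 3 and at 0.13, 0.148 and 0.0851 CPM in wild-type replicates 1 to 3. That is 10 to 30 against 2 to 4 counts, with a log2 fold change of 2.60 (SE 0.50, edgeR adjusted p = 0.0701). Ifit3b, an interferon-induced gene on chromosome 19, was at 1.56, 1.76 and 0.577 CPM in knockout and at 4.18, 4.54 and 3.41 CPM in wild-type muscle. Its log2 fold change was -1.65 (edgeR adjusted p = 0.0635), while its neighbours Ifit3 and Ifit1 were at 0.02 and 0.01.

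Transcripts of mast cells were lowest in wild-type replicates 2 and 3. Cpa3, a mast cell carboxypeptidase, was at 8.7, 8.45 and 5.73 CPM in knockout and at 8.82, 2.76 and 3.36 CPM in wild-type muscle. The mast cell proteases Tpsb2, Mcpt4 and Cma1 were highest in wild-type replicate 1 (7.04, 8.14 and 6.03 CPM) and lowest in wild-type replicates 2 and 3. The log2 fold changes of the 4 genes were 0.57, 0.40, 0.30 and 0.45 with all libraries and 1.34, 1.21, 1.14 and 1.28 with lane as a term, in the order named. Lyve1, a marker of lymphatic vessels and resident macrophages, was at 21.3, 20.2 and 18.3 CPM in knockout and at 20.4, 9.81 and 11 CPM in wild-type muscle. Its log2 fold change was 0.52 without a lane term (edgeR adjusted p = 0.743) and 0.96 with it (edgeR adjusted p = 0.00129).

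Arrdc2, Per1, Cebpd and Gadd45g were highest in replicate 1 of both genotypes. Without a lane term their log2 fold changes were 0.15, 0.04, -0.17 and -0.17, and none passed. With lane as a term they were 1.35, 1.05, 1.03 and 0.99, and each passed (edgeR adjusted p of 0.00129, 0.0187, 0.00415 and 0.0462). None passed without wild-type replicate 1. Arrdc2 was at 88.6, 39.6 and 44.6 CPM in knockout and at 101, 40.7 and 13.9 CPM in wild-type muscle. Per1, a core clock gene, was at 28.3, 14.5 and 11.7 CPM in knockout and at 32.1, 13.4 and 6.68 CPM in wild-type muscle. Cebpd ran from 8.81 to 19.6 CPM in knockout and from 4.6 to 30.1 CPM in wild-type muscle, and Gadd45g from 17.7 to 38 and from 9.87 to 62.4 CPM. Other early-response genes differed among themselves. In knockout replicates 1 to 3, Fos was at 2.73, 6.59 and 4.27 CPM and Atf3 at 6.44, 12.4 and 9.51 CPM, both lowest in replicate 1. In wild-type replicates 1 to 3 Fos was at 4.08, 2.47 and 3.06 CPM, highest in replicate 1. Myc was highest in replicate 1 of both genotypes. It was at 1.68, 1.08 and 1.31 CPM in knockout and at 2.98, 1.68 and 1.06 CPM in wild-type muscle.

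E030042O20Rik, a transcript beside Nfe2l2 on chromosome 2 (75704770 to 75710024), was at 0.39, 0.135 and 0.269 CPM in knockout and at 0.681, 0.789 and 0.638 CPM in wild-type muscle (log2 fold change -1.36, SE 0.40, edgeR adjusted p = 0.469).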
